A study of Mus musculus with 35 samples.

Results

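Tbx3 encodes a T-box transcription factor, and the peaks described here are those that lay over the mouse Tbx3 gene (chr5:119670534-119684724, gene 21386 of the RefSeq table for GRCm38.p6, the assembly that mm10 names) or within 100 kb of either end. This window of 214.2 kb held 214 of the 902871 deposited peaks: 134 of 628867 H3K27ac peaks and 80 of 274004 KLF4 peaks, from 22 ChIP-seq libraries. The gene is transcribed towards higher coordinates, so that lower coordinates are called upstream here. The table places 6 other genes in the window, each a long non-coding RNA (AW549542, Tbx3os1, Gm16063, Gm16064, Tbx3os2 and Gm42017). The nearest protein-coding genes were Med13l, a Mediator subunit gene 905.1 kb upstream, and Tbx5, a heart and forelimb T-box gene 111.8 kb downstream.

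The series followed fibroblasts on their way to pluripotency. Mouse embryonic fibroblasts (MEFs) of the strain C57BL/6 x 129 carried an OKSM cassette (Oct4, Klf4, Sox2 and Myc) at Col1a1 and M2rtTA at ROSA26, so that doxycycline switches the 4 factors on. Cells of day 3, day 6 and day 9 came from such MEFs kept in ESC medium to which doxycycline (1 µg/ml) and ascorbic acid (50 µg/ml) had been added, and for the last 2 of these days they were sorted for the surface antigen SSEA1, which the day 3 cells, MEFs and ESCs were not. Embryonic stem cells (ESCs) were the V6.5 line on irradiated feeder cells in serum and LIF, with or without "2i", which is 1 µM of a MEK inhibitor and 3 µM of a GSK3 inhibitor. H3K27ac was measured in MEFs (n = 2), day 3 (n = 3), day 6 (n = 3), day 9 (n = 2) and serum ESCs (n = 2), and KLF4 in day 3, day 6, day 9, serum ESCs and 2i ESCs (n = 2 each). The codes in the titles (DG-3458, EA-3702 and others) served as possible batches. KLF4 at day 3, 6 and 9 includes protein from the cassette, and no KLF4 library of MEFs was part of the series. Nothing in the labels says whether the samples of a group came from separate cultures or animals, so p-values measure the spread between these libraries, which may be technical.

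Tbx3 is known as a member of the network that keeps mouse ESCs in the naive state, where it acts with factors such as Nanog, Esrrb and Tfcp2l1 and responds to LIF signalling, and as a regulator of limb, heart and mammary gland development. H3K27ac is an acetyl mark on histone H3 found at active promoters and enhancers. KLF4 is a zinc finger factor that binds CACCC-like and GC-rich DNA and belongs to the same network.

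The labelled cell types were checked on H3K27ac over marker genes (the share of each gene and 2.5 kb to each side under peaks). In MEFs 9 of 9 fibroblast markers had a peak in both libraries, with 19.9% to 20.0% of their length covered, against 2 of 9 and 3.28% to 3.30% in ESCs, where Col1a2, Col3a1, Col5a2, Thy1 and Postn had none. Pluripotency markers were covered over 43.4% to 43.8% in ESCs (9 of 9 genes) and over 1.43% to 1.73% in MEFs (3 of 9). By day 9, 8 of 9 pluripotency markers had a peak in both libraries, at 6.47% to 6.78% coverage. Neural markers stayed at or under 1.13%, keratinocyte markers at or under 3.37% and blood markers at or under 4.96% at each stage, while endothelial markers reached 9.22% in ESCs. By count, 3 of 3 endothelial and 3 of 3 blood markers had a peak in both MEF libraries, as did 1 of 3 keratinocyte and 1 of 3 neural markers. Epithelial markers were also highest in ESCs, but by another course: their coverage was 6.45% to 6.53% in MEFs, 0.630% to 2.07% at day 6, 28.2% to 30.6% at day 9 and 34.0% to 34.7% in ESCs. At day 9 they were closer to their ESC level than the pluripotency markers were, and their part in the results at Tbx3 was not tested. Lists ran from 17493 to 88347 peaks for H3K27ac (9.21 to 83.5 Mb) and from 21129 to 34640 for KLF4 (4.45 to 15.2 Mb), and the day 6 lists of H3K27ac were the shortest.

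The antisense gene Tbx3os1 starts inside Tbx3, and its promoter in the RefSeq table (GRCm38.p6, chr5:119671459-119671758, minus strand) lay under H3K27ac peaks in 2 of 2 MEF, 3 of 3 day 3 and 2 of 2 ESC libraries and in none of day 6 or day 9. No KLF4 peak touched it. It held 1 GC box (GGGCGG on either strand, found in 35.7% of the 32851 promoters of the table) and no match to GGGNGTGG, the KLF4-type motif searched. The 30 bases about the GC box are shown because this promoter, of the 3 that the table places in the window, was the one marked in fibroblasts and again in ESCs. Its letters are in capitals (chr5:119671534-119671563, minus strand, 5′ to 3′).
Tbx3os1: cgactccttcccCCGCCCcctagctcttct

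Downstream of the gene, the promoter of Tbx3os2 (chr5:119691169-119691468, minus strand) met an H3K27ac peak in 2 of 2 ESC libraries and in no other library of either mark. It is shown as the promoter that carried the mark in ESCs alone; capitals mark the 76 bases inside the H3K27ac region. GGGNGTGG matched once on its opposite strand, outside the capitals, as in 17.6% of promoters in the table. The remaining promoter of the table in the window, that of Gm16064, had no peak in any library, although it also held 1 match to GGGNGTGG. These matches are descriptions of letters and not binding sites.
Tbx3os2: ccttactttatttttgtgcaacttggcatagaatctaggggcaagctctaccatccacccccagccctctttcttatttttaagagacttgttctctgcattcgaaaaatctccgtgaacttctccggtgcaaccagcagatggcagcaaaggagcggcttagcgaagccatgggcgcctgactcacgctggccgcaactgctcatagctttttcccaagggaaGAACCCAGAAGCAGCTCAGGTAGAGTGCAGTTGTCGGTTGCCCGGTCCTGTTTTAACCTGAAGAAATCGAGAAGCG

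H3K27ac formed broad blocks over and around Tbx3 in ESCs. It lay at the gene and 1 region upstream of it in MEFs, lay at the gene alone at day 3, and was absent from the day 6 lists and nearly so from those of day 9. In the ESC libraries 51 and 48 peaks covered 34.9% and 35.9% of the window (74.8 and 76.9 kb). In MEFs 5 and 7 peaks covered 3.02% and 3.01% (6.48 and 6.45 kb). At day 3 there were 8, 8 and 3 peaks over 1.47%, 1.45% and 1.60%. None of the 3 day 6 libraries had a peak, and each day 9 library had 2, over 0.480% and 0.702%. The 2 ESC libraries thus stood above the other 10 without overlap, and the 3 day 6 libraries stood below all others. A day 6 list without a peak in the window was common among genes. With no peak, Tbx3 ranked 16977, 16402 and 17362 among 21631 windows in the 3 lists, tied with every window below that rank. How many windows share the whole order of libraries was not counted. Windows of the same size 1 Mb upstream and 1 Mb downstream were covered over 0.799% to 1.27% and 10.6% to 11.9% in the ESC libraries.

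**Figure D1:**
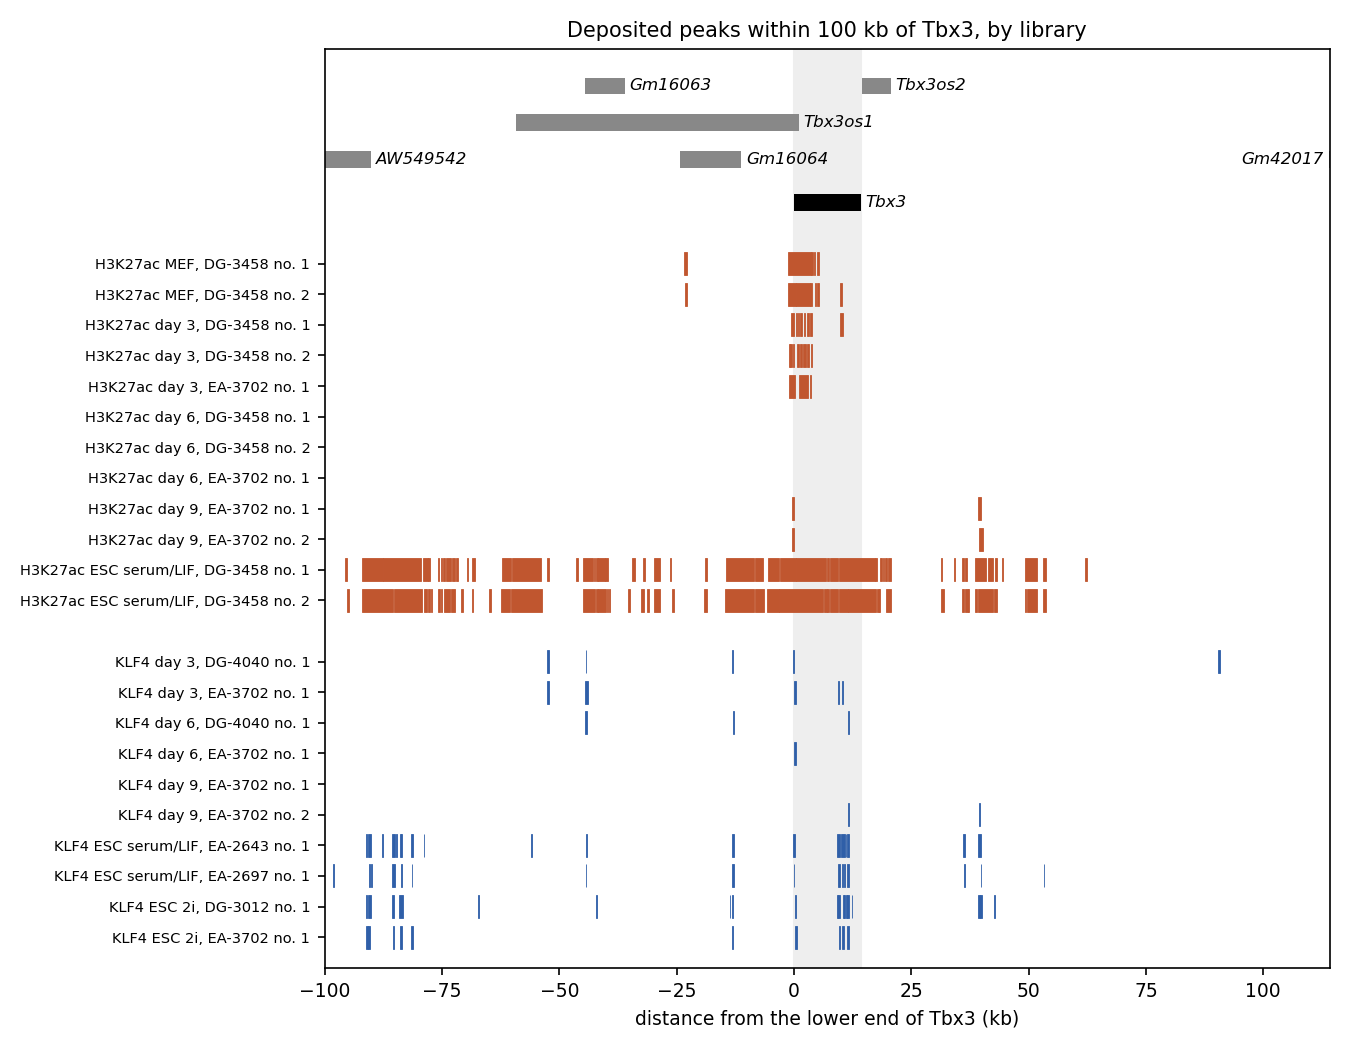
Peaks within 100 kb of Tbx3, by library. The x axis is the distance from the start of Tbx3 in kb, each row is 1 library, bars are deposited peaks (H3K27ac in orange, KLF4 in blue), genes are drawn on top and the shaded band is Tbx3; the 2 ESC rows of H3K27ac hold 51 and 48 peaks and the 3 day 6 rows none.

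Because lists differ in length, the test used relative coverage, the base pairs under peaks in the window per Mb under peaks in that list. It was 78.3 and 77.2 in MEFs, 103, 131 and 89.1 at day 3, 0 in each day 6 library, 21.0 and 30.4 at day 9, and 1129 and 1234 in ESCs. The ESC mean of 1182 ± 74.3 (SD, n = 2) exceeded the MEF mean of 77.7 ± 0.764 (SD, n = 2) by 1104. Stages differed by the exact permutation test of F over 138600 partitions of the 12 libraries (p = 1.443e-05, where the smallest possible is 7.215e-06; Benjamini-Hochberg adjusted p = 0.000501 over the windows of 21631 protein-coding genes). Windows that passed this test with a higher mean in ESCs than in MEFs made up 45.7% of all, so the call itself is common. The difference itself ranked 6 among the 21631 windows, whose median was 9.42. All 8 libraries of code DG-3458 (MEF, day 3, day 6 and ESC, 2 each) kept this order, with no overlap between stages. How many other windows show this was not counted. An exact permutation of labels within codes gave p = 0.0002646 (adjusted p = 0.00236).

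**Figure D2:**
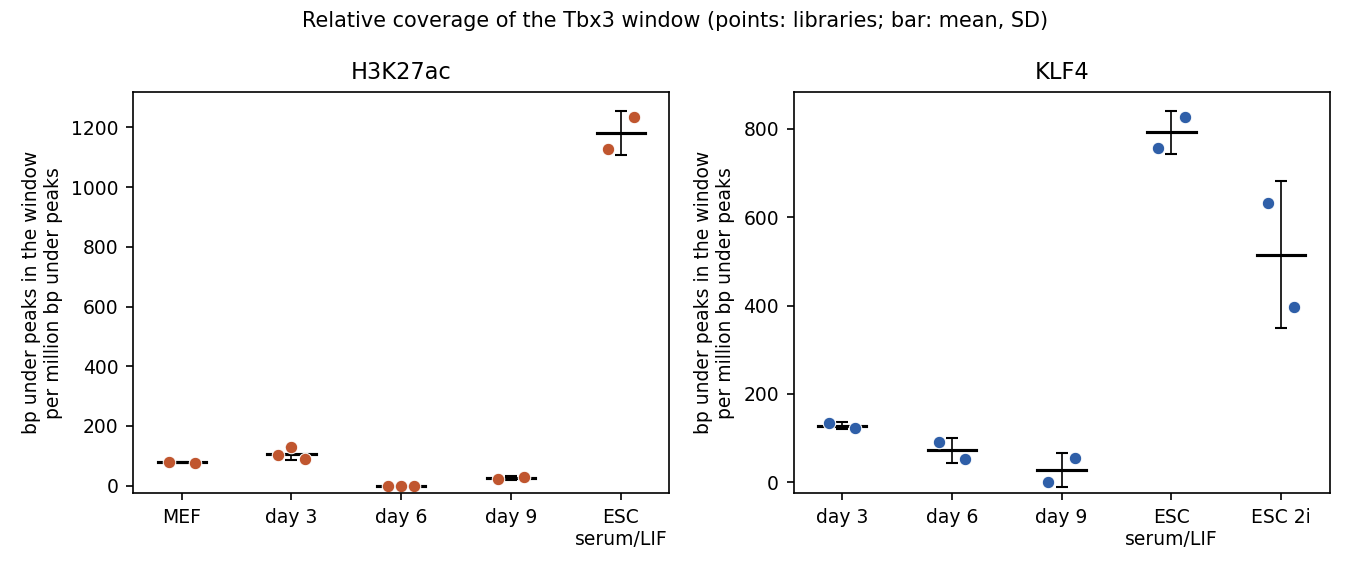
Relative coverage of the Tbx3 window by stage, for H3K27ac (left) and KLF4 (right). The y axis is base pairs under peaks in the window per Mb under peaks of the list, points are libraries, and the bar and whiskers are the mean and SD; H3K27ac is at 1129 and 1234 in ESCs and at or under 131 elsewhere.

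Within reprogramming, H3K27ac relative coverage changed by -15.4 per day between day 3 and day 9 (n = 8 libraries). By the exact permutation test of the slope over 560 labelings this had p = 0.05 and, adjusted over all windows, 0.187, so it did not pass. Windows with a falling slope at an unadjusted p of at most 0.05 made up 8.8% of all. Day 9 (25.7 ± 6.60, SD, n = 2) lay under each day 3 library and above each day 6 library. Of the fibroblast markers, 8 of 9 had a peak in at least 2 libraries at day 3, 2 of 9 at day 6 and 3 of 9 at day 9. Other lists fell from day 3 to day 6 as well. Pluripotency markers went from 3 to 2 of 9, and endothelial and blood markers each from 2 to 1 of 3. The counts of epithelial (3 of 5), keratinocyte (1 of 3) and neural markers (0 of 3) were the same on both days. The part of fibroblasts left in the culture, and of the SSEA1 sort and the shorter day 6 lists, was not tested.

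Merging peaks shared by at least 2 libraries of a stage gave 33 H3K27ac regions in the window, 314 to 12902 bp wide and 78.2 kb in total. All 33 had no peak in any day 6 library (82.8% of the 106528 H3K27ac regions of the genome). Regions present in both ESC libraries and absent from MEFs numbered 30 of 33 (29.6% of regions genome-wide), and 29 of these were absent from each other stage as well (21.8%). A single region was of MEFs and not ESCs (39.4% genome-wide), a single one was present in both (14.9%), and 2 were present at day 9 (29.7%). Neighbouring regions of one domain are not independent of each other. With a region of the ESC stage defined from 1 library, the count of ESC and not MEF regions was 46 without the library numbered 1 and 48 without the one numbered 2.

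Upstream of the gene lay 20 of the regions, with 58.8% of the covered length, and all but one were of ESCs alone (2 of 2 ESC libraries and none of the other 10). The farthest block began over the end of AW549542 at chr5:119578416-119591317, the widest region of the window at 12902 bp, and went on through chr5:119591367-119592534, chr5:119592579-119592892, chr5:119594564-119595004, chr5:119595241-119595558, chr5:119595745-119597423, chr5:119597433-119598325 and chr5:119601856-119602495. The next block, at chr5:119608165-119610122 and chr5:119610156-119616711, was centred 61.4 and 57.1 kb upstream and reached over the far end of Tbx3os1. Over Gm16063 stood chr5:119625499-119628102, chr5:119628295-119628753 and chr5:119628833-119630919, centred 40.7 to 43.7 kb upstream. Smaller regions followed inside Tbx3os1 at chr5:119637957-119638696 and chr5:119640624-119641940. Over Gm16064 lay the region of MEFs and not ESCs, chr5:119647181-119647793, with a peak in 2 of 2 MEF libraries and in no other library, and 2 regions of ESCs, chr5:119651406-119651905 and chr5:119655713-119662094. The last ones before the gene, chr5:119662117-119664031 and chr5:119664824-119667338, were centred 7.46 and 4.45 kb before its start.

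In ESCs the gene itself was covered over 93.3% and 94.3% of its length, against 32.3% and 33.1% in MEFs, 16.3% to 17.8% at day 3 and 0% at day 6, with 0.190% and 0.261% in the day 9 libraries. The start of Tbx3 lay in chr5:119667397-119677571, which had peaks in 2 of 2 MEF, 3 of 3 day 3, 0 of 3 day 6, 2 of 2 day 9 and 2 of 2 ESC libraries. It was thus the 1 region held by both MEFs and ESCs. Inside the gene, chr5:119677652-119678053 and chr5:119678170-119679854 were of ESCs alone. Its end lay in chr5:119680105-119688566, with 2 of 2 ESC, 1 of 2 MEF and 1 of 3 day 3 libraries.

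Downstream, 9 regions carried 14.7% of the covered length and none had a peak in MEFs, day 3 or day 6. Those at chr5:119688712-119689367 and chr5:119689983-119691244 lay over Tbx3os2. Farther out, chr5:119701904-119702455, chr5:119706254-119706666, chr5:119706994-119707521, chr5:119713059-119713845, chr5:119719698-119722254 and chr5:119723557-119724294 were present in 2 of 2 ESC libraries and no other. Among these 9, chr5:119709021-119713036 was the exception: it had a peak in 2 of 2 day 9 libraries besides 2 of 2 ESC libraries. No gene of the table overlaps it, 40.5 kb from the gene's start. Day 9 cells thus had H3K27ac at 2 of the 33 regions, the start of the gene and this one.

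Strength was described for the 6 regions whose peaks ranked best in their best stage, which was ESC for each, so high ESC values there follow from the choice. The score of a deposited peak is the whole part of 10 times its −log10 p, fold is the enrichment the authors deposited, and rank is the place of the best peak, the one with the highest score, in its own list. At the start of the gene, the best peak of the 2 ESC libraries had a fold of 37.3 and 37.0 and ranked in the top 0.698% and 0.378%. In MEFs it had 18.4 and 24.3 (top 10.7% and 6.62%), at day 3 5.32, 4.55 and 5.73 (top 25.0%, 45.1% and 22.6%) and at day 9 2.35 and 2.92 (top 89.2% and 68.3%). Folds and ranks come from separate lists of different length, so they describe each list and not a measured change.

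The region over the gene's end had folds of 30.1 and 27 in ESCs (top 0.540% and 0.549%), 5.41 in 1 MEF library and 3.33 in 1 day 3 library. At the region 40.5 kb downstream the ESC folds were 21.7 and 16.2 (top 3.79% and 6.23%) and the day 9 folds 3.70 and 4.69 (top 54.3% and 44.3%). For the regions centred 85.7, 57.1 and 11.6 kb upstream, ESC folds ran from 15.7 to 22.1 and ranks from the top 2.71% to 7.26%. The 6 strongest regions were thus spread from 85.7 kb upstream to 40.5 kb downstream. Single peaks were also wide: the widest ones in the window spanned 8114 and 9307 bp in the ESC libraries, where 0.218% and 0.111% of the peaks of the list were wider, against 4795 and 2926 bp in MEFs (0.973% and 4.48%).

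**Figure D3:**
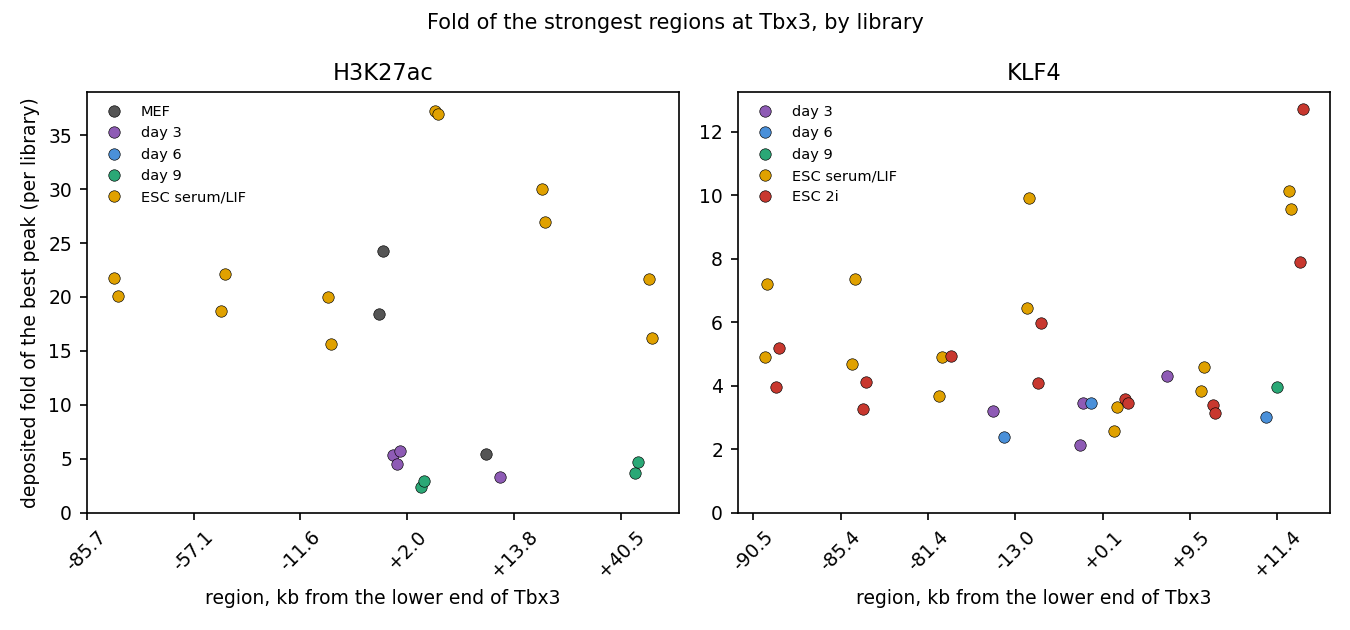
Deposited fold of the best peak in each library, for the strongest H3K27ac regions (left) and KLF4 regions (right) at Tbx3, including those at the start and end of the gene. The x axis gives the middle of each region in kb from the gene's start, in order of position and not to scale, and colours are stages; a library without a peak has no point, and the highest H3K27ac folds are 37.3 and 37.0 in ESCs at the start of the gene.

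KLF4 peaks at Tbx3 were also most numerous in ESCs, and they were narrow. There were 19 and 16 peaks in the window in serum ESCs, 19 and 10 in 2i ESCs, 5 and 5 at day 3, 3 and 1 at day 6, and 0 and 2 at day 9. Relative coverage was 758 and 827 in serum ESCs, 633 and 397 in 2i ESCs, 133 and 122 at day 3, 91.8 and 51.7 at day 6, and 0 and 55.0 at day 9. Each ESC library of either medium stood above each reprogramming library, and how many other windows share this order was not counted. The serum ESC mean of 792 ± 48.8 (SD, n = 2) exceeded the day 3 mean of 128 ± 7.85 (SD, n = 2) by 665, which ranked 20 among the 21631 windows (median 4.83).

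Stages differed for KLF4 with p = 0.002116 by the exact permutation test of F, where 945 partitions allow no p under 0.001058. Adjusted over all windows it was 0.0913, which does not pass, and no window of the genome passed by this test after Benjamini-Hochberg adjustment. Unadjusted, 5721 windows had p of at most 0.05, and those that were also higher in serum ESCs than at day 3 made up 16% of all. Each serum ESC library has a title code of its own (EA-2643 and EA-2697), so that code and serum ESC cannot be told apart. Code EA-3702 holds 5 KLF4 libraries, and there the window had 397 in 2i ESCs, 122 at day 3 and 51.7 at day 6, with 0 and 55.0 in the day 9 pair. With labels permuted within codes, p was 0.0333 (exact permutation test, adjusted p = 0.272).

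From day 3 to day 9 KLF4 relative coverage changed by -16.7 per day (n = 6; exact permutation test over 90 labelings, p = 0.0444, where 0.0222 is the smallest possible, adjusted p = 0.393), so it did not pass either. A falling slope at an unadjusted p of at most 0.05 was found in 4.48% of windows. In relative coverage the 2 serum ESC libraries lay above the 2 2i libraries, with a difference of 277 between the means. In covered length, not divided by that of the list, they overlapped: 6.78 and 3.68 kb in serum ESCs against 5.49 and 3.29 kb in 2i ESCs. With 2 libraries against 2 an exact test cannot go below p = 0.333, and title codes differ between them.

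The 14 KLF4 regions were 325 to 805 bp wide and covered 7.98 kb in all. Both serum ESC libraries had a peak at 12 of them (43.4% of the 37138 KLF4 regions of the genome) and both 2i libraries at 9 (40.5%). Those of both serum and both 2i libraries numbered 8 of 14 (25%). Of serum ESCs and not day 3 were 7 of 14 (15.6%), and 5 of 14 were of serum ESCs and absent from day 3, 6 and 9 alike (9.13%). A single region was of day 3 and not serum ESCs (19.4%). No region was present in both libraries at each of day 3, day 6, day 9 and serum ESC (0 of 14, against 15.3% of regions genome-wide). Without the serum ESC library of code EA-2697, 12 regions were of serum ESCs and not day 3.

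**Figure D4:**
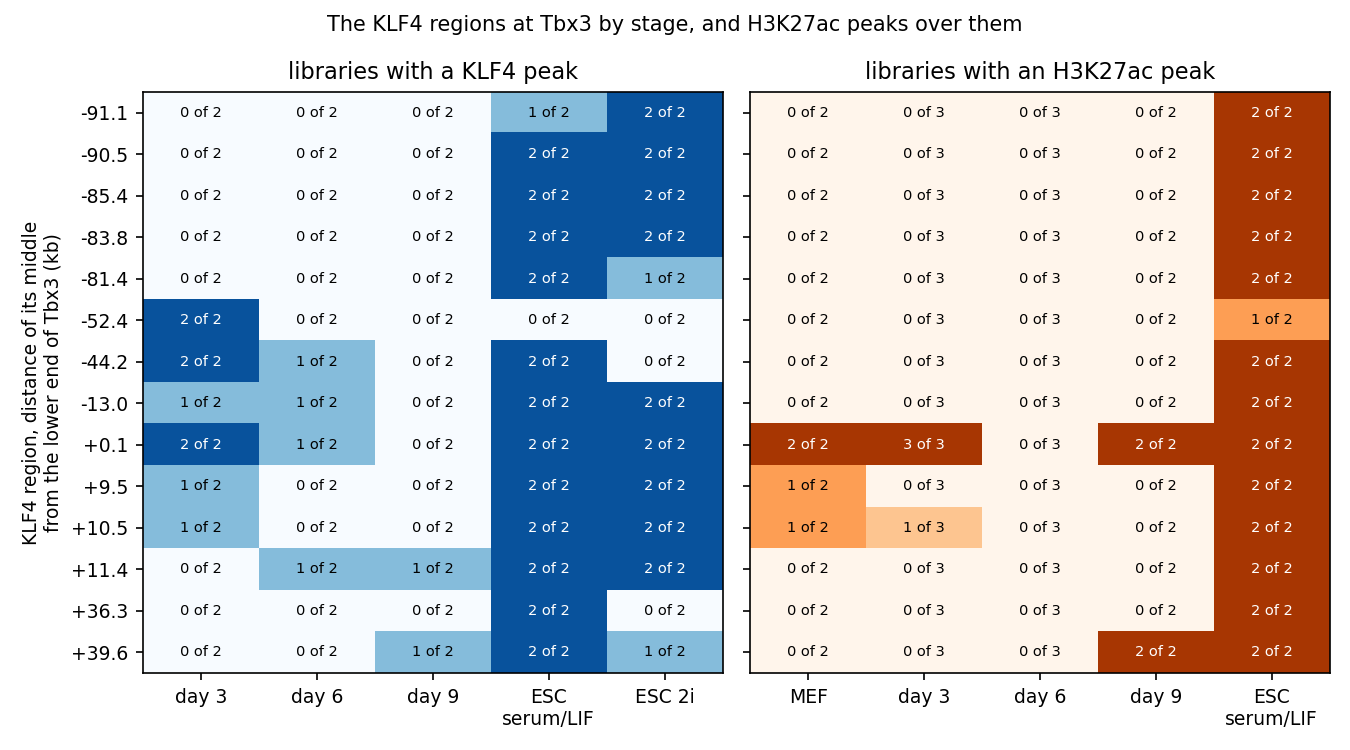
The 14 KLF4 regions at Tbx3 in order of position, with the number of libraries of each stage that had a KLF4 peak (left) and an H3K27ac peak (right) there. Rows give the middle of the region in kb from the gene's start (negative is upstream); KLF4 is in both serum ESC libraries at 12 rows and H3K27ac in both ESC libraries at 13.

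Farthest upstream, 5 KLF4 regions sat within the first H3K27ac block, 81.4 to 91.1 kb from the gene's start, and none had a KLF4 peak in the 6 reprogramming libraries. At chr5:119579297-119579624, over AW549542, KLF4 was in 1 of 2 serum and 2 of 2 2i libraries. The regions chr5:119579717-119580295, chr5:119584800-119585383 and chr5:119586337-119587134 had it in 2 of 2 serum and 2 of 2 2i libraries, and chr5:119588930-119589254 in 2 of 2 serum and 1 of 2 2i libraries. Folds at the second were 4.91 and 7.21 in serum ESCs and 3.97 and 5.18 in 2i ESCs, with the serum peaks in the top 6.22% and 6.87% of their lists. At the third, serum peaks had 4.68 and 7.38 (top 11.4% and 7.66%) and 2i peaks 3.26 and 4.12. The fifth had 3.66 and 4.92 in serum ESCs (top 20.6% and 25.7%) and 4.92 in the 2i library of code EA-3702.

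Next came the upstream regions with KLF4 peaks at day 3. At chr5:119617942-119618333, inside Tbx3os1, KLF4 was in 2 of 2 day 3 libraries and in no other, with best peaks in the top 82.4% of their lists on average. At chr5:119626051-119626578, over Gm16063, it was in 2 of 2 day 3, 1 of 2 day 6 and 2 of 2 serum ESC libraries and in none of day 9 or 2i. Over Gm16064, chr5:119657256-119657770 was in 1 of 2 day 3, 1 of 2 day 6, 2 of 2 serum and 2 of 2 2i libraries, 13.0 kb upstream. Here the serum folds were 6.45 and 9.91 (top 2.38% and 2.56%), the 2i folds 4.08 and 5.97 (top 25.5% and 32.7%), and the day 3 and day 6 peaks, both of code DG-4040, had 3.20 and 2.39.

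At the gene's start, chr5:119670272-119671061 had a KLF4 peak in 2 of 2 day 3, 1 of 2 day 6, 0 of 2 day 9, 2 of 2 serum and 2 of 2 2i libraries. These peaks were weak in each of them, with folds from 2.13 to 3.57 and the best in the top 41.5% of its list. The day 3 peak of code DG-4040 ranked at 99.6% with a deposited −log10 q of 0. Its KLF4 folds in the 4 ESC libraries lay between 2.56 and 3.57.

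Inside the gene 3 regions followed. At chr5:119679748-119680340 KLF4 was in 1 of 2 day 3, 2 of 2 serum and 2 of 2 2i libraries, with folds of 4.32 at day 3, 3.83 and 4.59 in serum and 3.40 and 3.14 in 2i ESCs. At chr5:119680585-119681389 the libraries per stage were the same. The strongest KLF4 region of the window was chr5:119681591-119682321, 11.4 kb into the gene, with no day 3 peak, 1 of 2 day 6, 1 of 2 day 9, 2 of 2 serum and 2 of 2 2i libraries. Its folds were 10.1 and 9.58 in serum ESCs (top 0.497% and 1.40%), 7.92 and 12.7 in 2i ESCs (top 2.87% and 4.95%), 3.01 at day 6 and 3.97 at day 9 (top 81.6% and 59.1%). The 2 day 3 libraries, 1 day 6 library and 1 day 9 library without a peak there have no fold. The region was picked by the rank of its ESC peaks, so high ESC values there follow from the choice.

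Downstream, chr5:119706577-119707007 was in 2 of 2 serum libraries and in no other, and chr5:119709839-119710420 in 1 of 2 day 9, 2 of 2 serum and 1 of 2 2i libraries. The latter lies inside the H3K27ac region that both day 9 libraries shared with ESCs, so 1 day 9 library had KLF4 where 2 of 2 had H3K27ac. Of the 2 sites with a KLF4 peak at day 9, the other, inside the gene, had no H3K27ac peak before ESCs.

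Across the 14 KLF4 regions, 13 lay under H3K27ac peaks of both ESC libraries (49.2% of the 37138 KLF4 regions of the genome did), and the remaining one, the day 3 region in Tbx3os1, under a peak of 1. No H3K27ac peak of MEF, day 3, day 6 or day 9 libraries touched 10 of the 14 (27.4% of regions genome-wide). The 7 regions of serum ESCs and not day 3 had H3K27ac in both ESC libraries in 7 of 7 cases, and 59.1% of the 5789 such regions of the genome did. Several of these KLF4 regions lie inside the same H3K27ac region, chr5:119578416-119591317, so the cases are not independent of each other. At the 2 regions upstream that KLF4 occupied in both day 3 libraries, H3K27ac was in 0 of 3 day 3 libraries, whereas at the gene's start it was in 3 of 3.

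The naive pluripotency network, a list of 20 genes, was set beside Tbx3. For H3K27ac, all 20 windows differed across the 5 stages (exact permutation test of F, adjusted p at most 0.05), as did 17119 of all 21631 windows. In 19 of the 20 the ESC mean lay above the MEF mean, as in the 45.7% of all windows given above, and in 1, that of Stat3, the effector of LIF signalling, it lay below, as in 33.4% of all windows. The F test covers all stages and is not a test of ESCs against MEFs. The windows of Dppa3 and Nanog overlap, so these genes are not independent of each other. The median difference of the 20 genes was 451 against 9.42 over all windows, and none of the 20 exceeded Tbx3. Esrrb, a nuclear receptor gene, had an ESC mean of 943 and a MEF mean of 2.89, and Nanog, a homeobox gene, 1084 and 206. For KLF4, 15 of 20 differed across stages at an unadjusted p of at most 0.05, as did 5721 of all 21631 windows, and none after adjustment. Of the 20, 14 did so with a serum ESC mean above the day 3 mean (16% of all windows) and 1 with a lower one (10.4%). The median difference in KLF4 was 204 against 4.83 over all windows, again with none of the 20 above Tbx3.

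**Figure D5:**
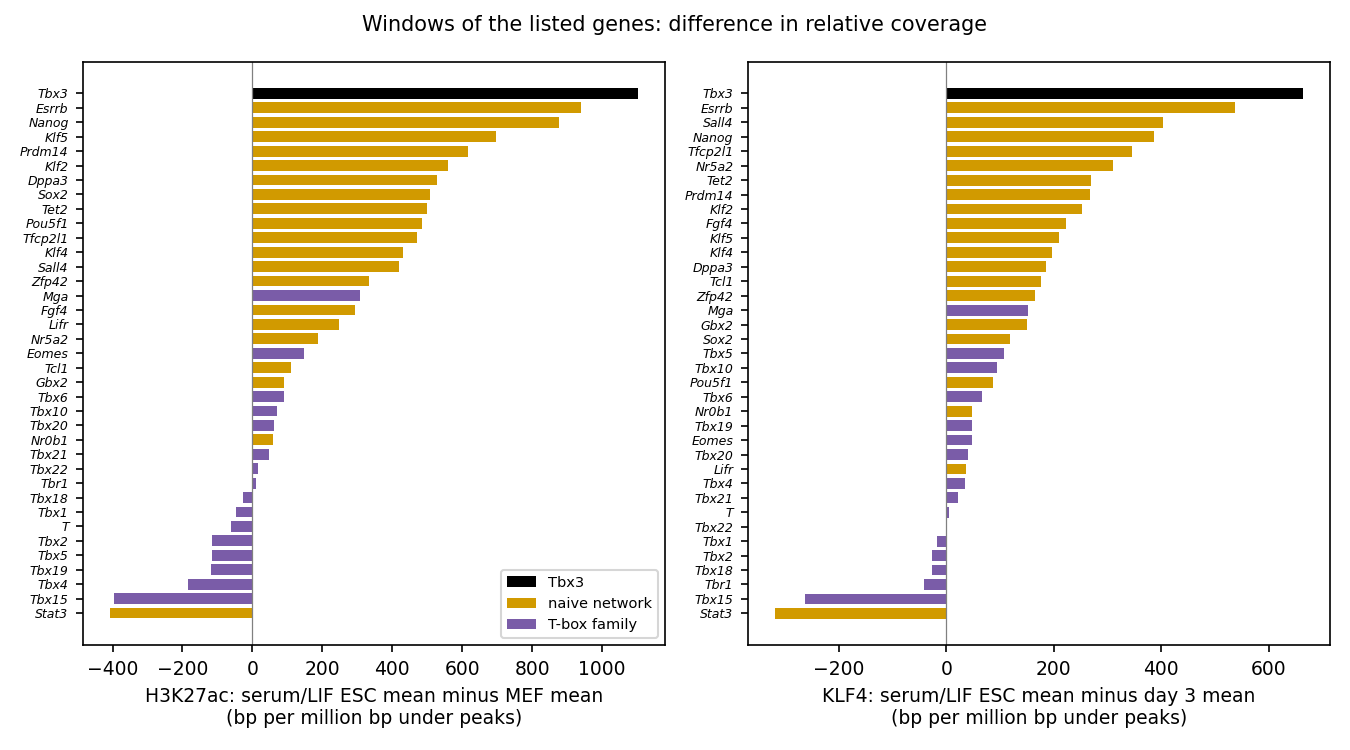
Differences in relative coverage for the windows of Tbx3 (black), the naive network (yellow) and the T-box family (purple), in order of size. The x axes are the serum ESC mean minus the MEF mean for H3K27ac (left) and minus the day 3 mean for KLF4 (right), in base pairs per Mb under peaks; Tbx3 is at the top of both, at 1104 and 665.

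Day 9 levels were then set against those of ESCs. Tbx3 had 2.17% of its ESC level of H3K27ac relative coverage and 3.47% of its serum ESC level of KLF4. The KLF4 share rests on day 9 libraries that differ: it was 0% from one and 6.94% from the other, while the H3K27ac shares were 1.78% and 2.57%. Over the 20 network genes these shares ran from 4.40% (Esrrb) to 276% (Stat3) for H3K27ac, with a median of 39.2%, and from 12.9% to 136% for KLF4, with a median of 64.1%. None of the 20 was as low as Tbx3 in either mark, by the means. Elsewhere lower shares were found: Tbx22 had 0% for H3K27ac and Tbx18 0% for KLF4, and Sult2a3, Cyp3a11, Pramel6 and Defa32, whose windows were most like that of Tbx3, had 0% in both. Sall4, a zinc finger factor gene, had 76.7% and Nanog 44.0% of the ESC level of H3K27ac at day 9, while Zfp42, which encodes REX1, had 6.43%. These shares are descriptions without a test, and the genes share their libraries. All day 9 libraries are of code EA-3702 and were sorted. The ESC libraries were unsorted and of code DG-3458 for H3K27ac and EA-2643 and EA-2697 for KLF4. Stage, title code and sorting therefore cannot be told apart in these shares.

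Of the 16 windows of other T-box family genes, 13 differed across stages for H3K27ac by the same test and 3 did not pass. As 17119 of all 21631 windows passed, this count is near that of windows in general. Of the 16, 5 passed with an ESC mean above the MEF mean (Eomes, Mga, Tbx20, Tbx21 and Tbx6), against 45.7% of all windows. Another 8 passed with a lower one (T, Tbx1, Tbx15, Tbx18, Tbx19, Tbx2, Tbx4 and Tbx5), against 33.4%. The windows of Tbx2 and Tbx4 overlap, so these 2 are not independent of each other. Some of these windows had their highest mean at day 9, such as Tbx1 with 371 against 167 in MEFs and 119 in ESCs. The median difference of the 16 windows was -8.28. Tbx15, a gene of mesenchymal development, had 422 in MEFs and 27.1 in ESCs, and Tbx2, the family member closest to Tbx3, had 151 and 37.0. Neighbouring Tbx5 had 257 in MEFs, 0 at day 3 and day 6, 15.3 at day 9 and 143 in ESCs, and its window shares its upstream part with that of Tbx3. For KLF4, 1 of the 16 family windows, that of Tbx15, differed across stages at an unadjusted p of at most 0.05 with a lower mean in serum ESCs than at day 3 (10.4% of all windows), and 0 of 16 did so with a higher one (16%).

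The windows most like that of Tbx3 were sought by the smaller of 2 Pearson correlations of relative coverage with Tbx3, over 12 H3K27ac and over 10 KLF4 libraries. They were those of Sult2a3, a sulfotransferase gene (0.991), Cyp3a11, a cytochrome P450 gene (0.978), Pramel6, a PRAME family gene (0.977), Defa32, a defensin gene (0.970), and Col13a1, a collagen gene (0.970). The likeness rests on the 2 ESC libraries of H3K27ac and the 4 of KLF4, and 163 windows had a smaller correlation above 0.9. Levels in these windows were lower: H3K27ac relative coverage in ESCs was 113 at Sult2a3, 392 at Pramel6 and 453 at Col13a1, against 1182 at Tbx3. Sult2a3, Cyp3a11 and Defa32 had no H3K27ac outside ESCs, and Col13a1 had 48.4 to 103 at the other stages.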

How the data were processed

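The authors deposited 1 peak list per library for 22 of 35 samples. The 13 input samples were not analysed here. Each list has 10 columns and no header, and per the file values the authors give a score, a fold (ratio) and, as −log10, the p-value and q-value of every peak. Per the submitters' processing notes, cutadapt 1.8.1, Bowtie2 2.2.5, deepTools 2.3.6, MACS2 2.1.1 and the build mm10 were used; settings and controls are not given in the sources used here. Depth and the yield of the immunoprecipitation shape every list and are unknown here. A missing peak therefore does not show missing signal, and read counts could not be tested.

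Peaks on chromosomes 1 to 19 and X were used. Relative coverage was computed for Tbx3 and 21631 protein-coding genes, each with 100 kb to each side, and compared by exact permutation tests (F over stages, two-sided slope over days) with Benjamini-Hochberg adjustment over all windows and a threshold of 0.05. Regions were merged peaks shared by at least 2 libraries of a stage; a region was present at a stage with 2 or more libraries, absent with 0 and otherwise undecided, by 1 bp of overlap. Values per library are given for at most 6 regions per mark, those whose score ranked best on average in their best stage, plus any at the start or end of the gene. The T-box list matched 16 genes and the naive network list 20. Sequences are from RefSeq tables for GRCm38.p6, which matched 3 promoters in the window. The gene, the lists and the rules were chosen with earlier results of these data known. The code was tested on simulated data. Python 3.11.15, NumPy 2.4.6 and matplotlib 3.10.9 were used.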

Additional observations from a re-analysis of the deposited data

How the results depend on the processing

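Coverage results kept their direction and their side of the threshold under the alternatives tried (covered length not divided by the list, peaks per 10000, the top 50% of each list, equal numbers of top peaks, q of at most 0.01, 50 kb flanks, the gene with 2.5 kb, labels within title codes, and each library left out), except for the replicate block. The adjusted p over these ran from 0.0001765 to 0.0201 for H3K27ac across stages, from 0.187 to 0.504 for its slope, from 0.0951 to 0.406 for KLF4 across stages and from 0.370 to 1 for its slope. Samples of code DG-3458 share replicate numbers, but the numbers did not pair them: same-numbered libraries deviated together with r from -0.0351 to 0.0766. With the replicate block the exact permutation test gave F = 501.5 (adjusted p = 0.0954). Exchanging the day 6 numbers, since names inside those lists carry the other number, gave 501.5 again (exact permutation test, adjusted p = 0.0963, chosen after seeing the data). F at Tbx3 could not change by this, because both day 6 libraries of this code had a relative coverage of 0 there. The 576 labelings of 8 libraries allow no unadjusted permutation p under 0.0417. For KLF4, codes DG-4040 and EA-3702 hold 1 library each of day 3 and day 6, with relative coverage of 133 and 91.8 in the first and 122 and 51.7 in the second; these pairs entered through the labels permuted within codes and were not tested on their own.

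Region counts depended on the lists more. Of H3K27ac regions there were 21 in the top 50% of the lists, 11 with equal numbers of top peaks and 53 with regions from any library; those of ESC and not MEF were 19, 10 and 50, and those of MEF and not ESC were 0 under the first pair. KLF4 regions numbered 9 in the top 50%, 8 at q of at most 0.01, 27 from any library and 8 with 50 kb flanks. Regions of serum ESC and not day 3 were 15 from any library and 3 with 50 kb flanks. The region of day 3 and not serum ESC was lost (0) in the top 50%, with equal numbers, at q of at most 0.01 and with 50 kb flanks, and became 2 from any library. Leaving out 1 library at a time gave 33 to 51 H3K27ac regions, 30 to 48 of ESC and not MEF, 14 to 20 KLF4 regions, 7 to 12 of serum ESC and not day 3, and 1 to 2 of day 3 and not serum ESC. The highest of these followed from removing an ESC library or the day 3 library of code EA-3702, after which 1 library defines a stage. Unknown depth limits what an absent peak can show.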

Other observations

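Outside the regions shared by libraries of a stage, 20 H3K27ac peaks and 13 KLF4 peaks lay in the window. All 20 H3K27ac ones were in single ESC libraries, the strongest at chr5:119605559-119605912 with a deposited fold of 5.96. Among the 13 KLF4 peaks, 12 were in ESC libraries of either medium, and 1, at chr5:119760979-119761258 with a fold of 5.07, was in the day 3 library of code DG-4040. No shared region of either mark lay between the end of the H3K27ac region chr5:119723557-119724294 and the downstream edge of the window.

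The H3K27ac regions nearest to the window but outside it were at chr5:119563657-119564380, present in 2 of 2 ESC and 1 of 2 MEF libraries and 106.2 kb upstream of the gene, and at chr5:119802924-119806634, inside Tbx5 and present in 2 of 2 MEF libraries and in no other. The nearest KLF4 regions outside it were at chr5:119543799-119544323 and chr5:119845052-119845394, each with 1 of 2 serum and 2 of 2 2i ESC libraries and no reprogramming library.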
